A study of Mus musculus with 6 samples.

Results

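Guanine nucleotide exchange factors (GEFs) and GTPase-activating proteins (GAPs) of the small GTPases, 67 of the 2652 genes listed in the deposited table, were described in RNA recovered with METTL3 from mouse natural killer (NK) cells. The genes were chosen by symbol, as those named Arhgef, Vav, Tiam, Plekhg, Dock, Elmo, Arhgap, Srgap, Myo9b, Rasgrp, Rapgef, Rgl, Ralgds, Sos, Rasa, Rasal, Nf1, Iqgap, Sipa1, Rap1gap, Ralgap, Tsc, Tbc1d, Dennd, Agap, Arap, Asap, Git, Arfgef or Gbf1, with the numbers or letters that follow in each family. The symbol rule itself uses no measured value.

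Small GTPases are switches that are on when they hold GTP and off when they hold GDP. A GEF opens the GTPase so that GDP leaves and GTP enters, and a GAP speeds the hydrolysis of GTP and so turns the switch off. Rac and Cdc42 shape the actin cytoskeleton, Ras and Rap carry receptor signals to kinases and integrins, Rheb acts on mTORC1, and Rab and Arf direct vesicle traffic. In NK cells such switches are known to take part in migration, in the synapse with a target cell and in the delivery of lytic granules.

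To find transcripts bound by METTL3, the catalytic subunit of the complex that writes N6-methyladenosine (m6A) on mRNA, RNA immunoprecipitated with an anti-METTL3 antibody (METTL3-RIP, 3 libraries) was compared with RNA of the lysate before precipitation (input, 3 libraries). Both groups were sorted splenic NK cells of wild-type C57BL/6 mice, taken 1 month after hydrodynamic injection of the plasmid pLIVE-IL-15, which expands NK cells in vivo, so that all libraries share the IL-15 exposure. No mock precipitation, METTL3-deficient cells or unexpanded cells were analysed here. The study's mice were between 6 and 10 weeks of age, and the number pooled and whether replicates came from separate mice are not given in the sources used here. Values are RPKM, the read number of a gene scaled to exon length in kilobases and to library size in megareads. This unit was inferred from the values, and it gave totals of 9401509, 9613292 and 11809744 reads for the METTL3-RIP libraries and between 14710607 and 15992386 for the input libraries.

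The table holds genes that the authors' comparison had placed higher in METTL3-RIP, so the direction of every difference was fixed by the listing. The ratio of mean RPKM, METTL3-RIP over input, was at least 9.14 in all 2252 listed genes for which it was computed. Genes of smaller ratio are thus absent, and the spread of ratios below describes listed genes only. None of the 11 NK cell markers, 6 T cell markers, 4 B cell markers, 6 myeloid markers and 4 erythroid markers looked for was in the table, and the labelled cell type could not be checked against them. Vav1, Vav3, Dock11, Sos1, Arhgef2, Iqgap1 and Elmo1, well-known relatives of the 67 genes in lymphocytes, were not in the table either and were not analysed here.

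To show the transcripts behind the values, a copy of GGACT was taken from the GENCODE M21 transcript of 6 genes. It was the copy nearest to the stop codon among those with 12 bases on each side in the same exon. The genes were the 3 with the highest METTL3-RIP level (Dock2, Arhgef1 and Rasa3), the pair with the largest ratio of METTL3-RIP to input (Myo9b and Dock5) and the gene with the smallest ratio (Rasgrp1). GGACT is the most familiar form of the sequence around which METTL3 methylates adenosine. Capitals mark the motif, and each sequence runs 5′ to 3′ along the transcript, with T for U.
Dock2: tctcttattgaaGGACTgaggagaaagat
Arhgef1: cccagcttggggGGACTctgtcccccaac
Rasa3: ttagggaagtatGGACTttgtctaaacct
Myo9b: gcacggagccagGGACTtggaacctttag
Dock5: cacacaaaaagtGGACTataggcttttac
Rasgrp1: ttcggctgaagaGGACTgttgcccacaag

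On GRCm38 the Dock2 copy lies at chr11:34227152-34227180 on the minus strand, in the 3′ UTR, with its adenosine 502 nt after the end of the stop codon. The Rasa3 copy lies at chr8:13568372-13568400 on the minus strand, the Myo9b copy at chr8:71360558-71360586 on the plus strand and the Dock5 copy at chr14:67755389-67755417 on the minus strand, all in the 3′ UTR and 305, 599 and 1015 nt after the stop codon. The Arhgef1 copy at chr7:24926064-24926092 on the plus strand and the Rasgrp1 copy at chr2:117285093-117285121 on the minus strand are in coding sequence, 56 and 389 nt before the end of the stop codon. The motif was searched on the transcript strand, and overlapping copies cannot occur with these letters. The 66 genes with an annotated transcript all held at least 1 GGACT, as did 96.6% of listed protein-coding genes and 86.7% of all protein-coding genes, and the median density was 1.23 copies per kb against 1.13 and 1.01. The genes with the largest and the smallest ratio did not stand apart in it: Myo9b had 1.37 copies per kb and Rasgrp1 had 1.15. A match describes the letters of the transcript and shows neither binding nor methylation.

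All 67 GEF and GAP genes were higher in METTL3-RIP than in input (limma on log2(RPKM + 0.1), adjusted p at most 0.0011), as was 100% of the listed genes. The lowest METTL3-RIP value lay above the highest input value in each of the 67 genes, and in 99.8% of the listed genes. Since the listing had fixed this outcome, it says nothing about the family. All libraries were made from bulk lysates, directly or after precipitation, in which fewer cells and less RNA per cell cannot be told apart. The levels are plotted gene by gene.

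**Figure D1:**
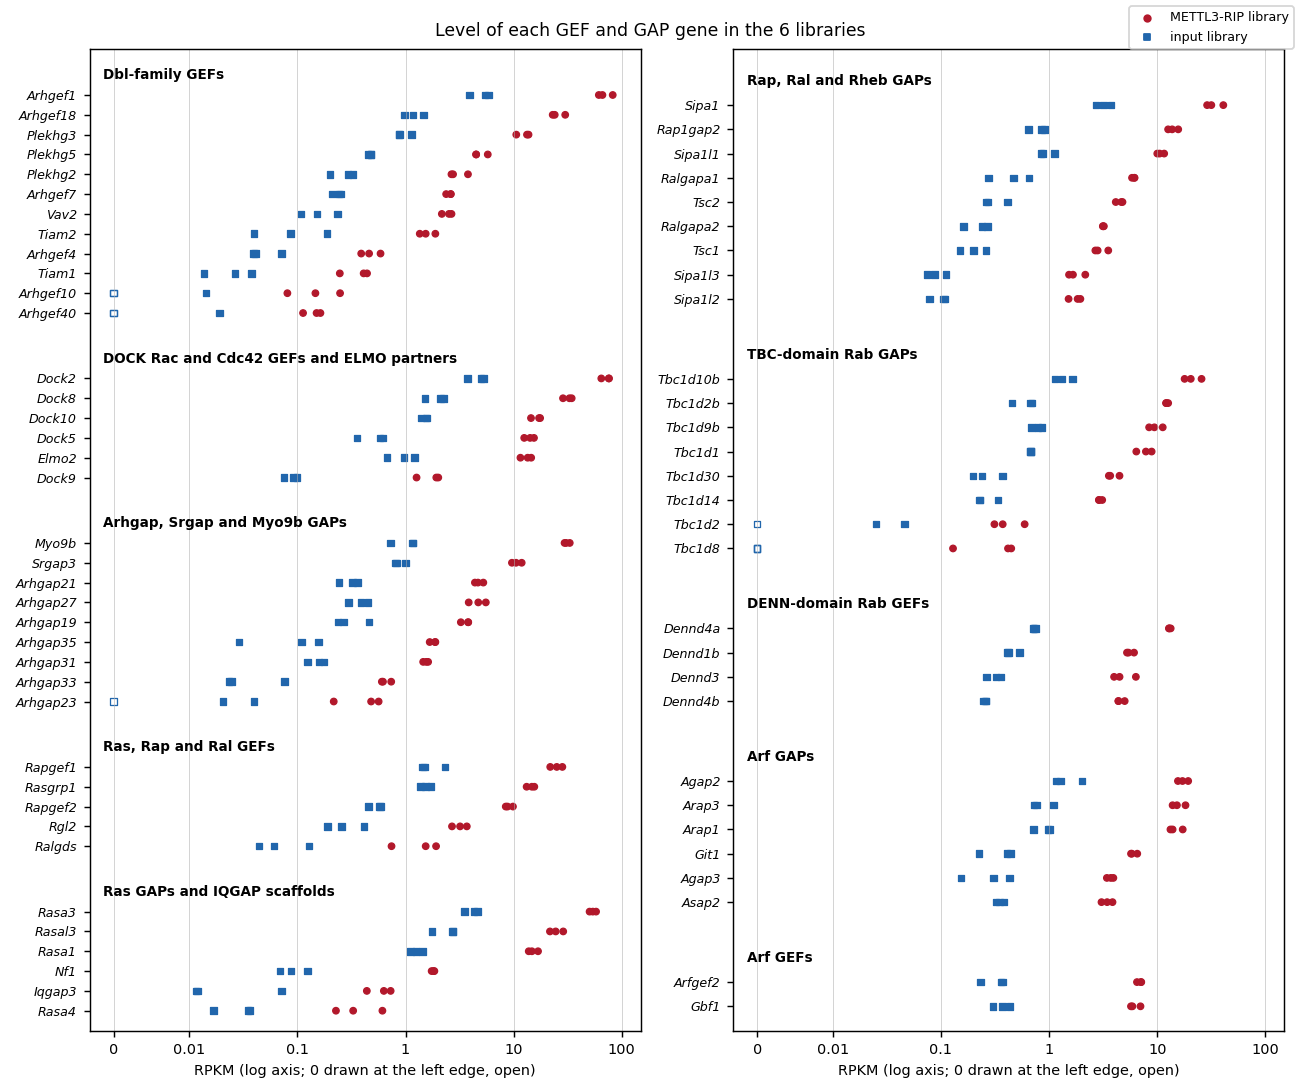
RPKM of the 67 GEF and GAP genes in each METTL3-RIP library (red circles) and each input library (blue squares), on a log axis, by class and by mean METTL3-RIP level. Levels in METTL3-RIP ran from a mean of 0.142 RPKM for Arhgef40 to 72.2 RPKM for Dock2, and the 2 groups of libraries did not overlap in any gene.

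The family was listed at higher levels than the table as a whole. The median gene had a mean of 4.92 RPKM in METTL3-RIP and 0.352 RPKM in input, against 3.04 and 0.190 RPKM over all listed genes. Together the 67 genes held 2.57% to 2.82% of the listed RPKM in the METTL3-RIP libraries and 2.88% to 3.06% in the input libraries. The coefficient of variation between libraries had a median of 11.4% in METTL3-RIP and 22.6% in input. Among METTL3-RIP libraries replicate 2 was the highest in 49 of the 67 genes (73.1%, against 53.9% of all listed genes) and replicate 3 the lowest in 42 (62.7%, against 59.3%).

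Dock2 and Arhgef1 were the most abundant of the 67 transcripts in METTL3-RIP. Dock2, the Rac GEF that leukocytes need for migration, had 76.1, 75.9 and 64.7 RPKM in METTL3-RIP replicates 1, 2 and 3 and 5.27, 4.99 and 3.74 RPKM in input. In reads these were 8171, 8339 and 8726 against 916, 911 and 628, among the deepest values of the family. Dock8, a Cdc42 GEF whose loss causes an immunodeficiency with faulty migration and synapses, had 32.8, 34.4 and 28.6 RPKM against 2.25, 2.11 and 1.51 RPKM. Both genes had their lowest value of either group in replicate 3. The ratio of mean RPKM was 15.5 for Dock2 (14.1 to 16.6 when any 1 library was left out) and 16.3 for Dock8 (14.7 to 17.7).

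Other DOCK genes spread more widely. Dock5, a Rac GEF, had 12.5, 15.4 and 14.2 RPKM against 0.578, 0.617 and 0.355 RPKM, a ratio of 27.2 (23.5 to 30.1), the largest of the class. Dock10, which acts on Cdc42 and Rac, had a similar METTL3-RIP level of 17.6, 17.2 and 14.5 RPKM but more RNA in input, 1.55, 1.58 and 1.38 RPKM, and its ratio of 10.9 (10.5 to 11.5) was the smallest of the class. The leave-one-out ranges of Dock5 and Dock10 did not overlap. Here and below such ranges share most of their libraries and are not a test between genes. Elmo2, a scaffold that DOCK proteins bind, had a mean of 13.2 RPKM and a ratio of 13.9, and Dock9, a Cdc42 GEF, a mean of 1.73 RPKM and a ratio of 19.5.

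Dbl-family GEFs were the largest class, with 12 genes, and ranged furthest in level. Arhgef1, a GEF that acts below G-protein-coupled receptors, had 66.2, 82.5 and 61.3 RPKM in METTL3-RIP and 5.83, 5.41 and 3.89 RPKM in input, with a ratio of 13.9 (12.5 to 15.0). Arhgef18 had 24.0, 30.0 and 23.0 RPKM against 1.46, 1.18 and 0.980 RPKM, with a ratio of 21.3 (19.4 to 23.8). Its range lay above that of Arhgef1. Vav2, of the tyrosine-phosphorylated Vav family, had 2.52, 2.66 and 2.17 RPKM against 0.152, 0.109 and 0.236 RPKM. These input values rest on 16, 12 and 24 reads, and the ratio of 14.8 moved between 12.6 and 18.8 with the library left out.

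At the low end of the class, Tiam1, a Rac GEF, had 0.247, 0.441 and 0.410 RPKM against 0.0265, 0.0379 and 0.0137 RPKM. Arhgef10 had 7, 13 and 27 METTL3-RIP reads, and its input libraries had 2, 0 and 0. Arhgef40 had 11, 15 and 20 reads against 3, 0 and 0. Scaled by the library totals and summed over libraries, METTL3-RIP exceeded input by 35.0 times for Arhgef10 (exact 95% interval 9.17 to 298) and 22.8 times for Arhgef40 (7.34 to 115). These intervals cover counting error only and take no account of the listing. At this depth neither ratio could be told from the median of the table.

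Myo9b had the largest ratio of the 64 GEF and GAP genes with at least 2 input libraries above 0. It is an unconventional myosin that carries a GAP domain in its tail and moves along actin. Myo9b had 30.6, 33.0 and 29.6 RPKM in METTL3-RIP and 1.17, 1.16 and 0.725 RPKM in input, or 2155, 2380 and 2618 reads against 134, 139 and 80. Its ratio was 30.5 (26.6 to 33.0), and its log2 difference 4.82 ± 0.20 (SE, n = 3 against 3). Srgap3, a Rac GAP with an F-BAR domain, had 10.5, 11.9 and 9.64 RPKM against 0.807, 0.996 and 0.821 RPKM and a ratio of 12.2 (11.5 to 13.1). The 7 Arhgap genes had mean METTL3-RIP levels from 0.421 RPKM (Arhgap23) to 4.77 RPKM (Arhgap21). Of these Arhgap27 is uncertain, as 23.1% of its exon length overlaps a gene on the other strand and the use of strand in counting is not given in the sources used here.

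Ras and Rap regulators were listed on both sides of the switch. Rasgrp1, the Ras GEF that diacylglycerol recruits after antigen-receptor signalling, had 14.7, 15.5 and 13.2 RPKM in METTL3-RIP and 1.72, 1.37 and 1.53 RPKM in input. Its ratio of 9.39 (8.90 to 9.98) was the smallest of the family and near the lower edge of the table, 9.14. Rapgef1, a Rap1 GEF, had 25.0, 28.2 and 21.8 RPKM against 2.31, 1.44 and 1.5004 RPKM and a ratio of 14.3.

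The GAPs that oppose them included Rasa3, a GAP for Ras and Rap1, with 53.9, 57.8 and 50.4 RPKM against 4.61, 4.32 and 3.51 RPKM and a ratio of 13.03 (12.1 to 13.8). Rasal3, a Ras GAP of blood cells, had 24.5, 28.7 and 21.7 RPKM against 2.76, 2.71 and 1.76 RPKM, and 12.97% of its exon length overlaps a gene on the other strand. Rasa1, a Ras GAP that docks on receptor tyrosine kinases, had 13.8, 16.8 and 14.8 RPKM against 1.44, 1.25 and 1.11 RPKM. All 3 were high in every METTL3-RIP library, and their ratios of 10.4 to 13.03 were below the median of the table, 13.5, which the range of Rasa3 spanned. In the fit relative to the median listed gene, given below, Rasa3 had 0.23, Rasa1 0.03 and Rasal3 -0.11, none past the threshold. Nf1, the Ras GAP lost in neurofibromatosis, was lower in level, with 1.85, 1.81 and 1.74 RPKM against 0.125, 0.0870 and 0.0688 RPKM, and had a larger ratio of 19.3 (17.0 to 23.2). Rasa4, a calcium-regulated Ras GAP, had 16, 44 and 29 reads against 4, 2 and 4.

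Sipa1, the main Rap1 GAP of lymphocytes, had 31.7, 40.9 and 28.9 RPKM in METTL3-RIP and 3.74, 3.17 and 2.71 RPKM in input, with a ratio of 10.6 (9.46 to 11.5). Rap1gap2, another Rap1 GAP, had 13.7, 15.6 and 12.6 RPKM against 0.642, 0.908 and 0.854 RPKM and a ratio of 17.5 (15.9 to 18.7), a range above that of Sipa1. Tsc1 and Tsc2 form the tuberous sclerosis complex, in which Tsc2 is the GAP for Rheb and Tsc1 holds it stable. Tsc1 had 2.68, 3.53 and 2.81 RPKM against 0.261, 0.201 and 0.149 RPKM, and Tsc2 had 4.77, 4.65 and 4.14 RPKM against 0.415, 0.260 and 0.271 RPKM. The partners had nearly the same ratio, 14.8 (13.02 to 17.2) and 14.3 (13.2 to 17.0).

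Regulators of vesicle traffic reached moderate levels. Tbc1d10b, a TBC-domain Rab GAP, had 17.9, 25.7 and 20.4 RPKM against 1.65, 1.32 and 1.13 RPKM. Tbc1d2b, of the same class, had 12.1, 12.6 and 12.1 RPKM against 0.672, 0.455 and 0.695 RPKM, with a ratio of 20.2 (17.96 to 21.8). Tbc1d8 had 22, 21 and 8 METTL3-RIP reads with 0 reads in each input library, and was at least 8.84-fold higher than the floor of 3 reads per input library. Scaled by the library totals, the lower end of its exact 95% interval was 19.9. That interval covers counting error only and takes no account of the listing, which kept genes higher in METTL3-RIP. Dennd4a, a DENN-domain Rab GEF, hardly varied between libraries, with 12.8, 12.9 and 13.3 RPKM against 0.726, 0.706 and 0.752 RPKM, and its ratio was 17.9 (17.6 to 18.2). Dennd1b, a GEF for Rab35, had 5.42, 5.25 and 6.10 RPKM against 0.423, 0.535 and 0.413 RPKM and a ratio of 12.2.

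Arf regulators completed the family. Agap2, an Arf GAP that also binds phosphoinositide kinase, had 17.1, 19.3 and 15.5 RPKM against 2.02, 1.28 and 1.16 RPKM and a ratio of 11.7. Arap3, which joins an Arf GAP and a further GAP domain, had 15.2, 18.3 and 13.9 RPKM against 0.767, 1.10 and 0.729 RPKM and a ratio of 18.2 (16.8 to 21.1). Of the 4 annotated Arf GEFs that the symbol rule matched 2 were listed, both of the Golgi, and other Arf GEFs lie outside the rule. Arfgef2, of the trans-Golgi, had 7.12, 7.06 and 6.50 RPKM against 0.359, 0.371 and 0.233 RPKM and a ratio of 21.5 (18.9 to 23.3), and Gbf1, of the cis-Golgi, had 5.89, 7.002 and 5.72 RPKM against 0.304, 0.373 and 0.435 RPKM and a ratio of 16.7 (15.4 to 18.3).

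The ratio of mean RPKM, which adds no constant, had a median of 14.4 over the 64 GEF and GAP genes with at least 2 input libraries above 0, and ran from 9.39 to 30.5. Over the 2252 listed genes of that kind the median was 13.5 and the range 9.14 to 624. A ratio above 13.5 was found for 38 of the 64 genes (59.4%). A ratio of 20 or more was found for 6 of them (9.38%), Myo9b, Dock5, Arfgef2, Arhgef18, Arhgap23 and Tbc1d2b, and for 18.6% of the listed genes. Of these 6 only Myo9b and Dock5 stayed above 20 whichever library was left out. The ratio of Arhgap23 is poorly fixed, since its input values rest on 4, 0 and 2 reads. The family thus lay in the middle of the table, with few of the largest ratios. By class the median ratio was between 13.1 (Ras GAPs and IQGAP scaffolds) and 19.1 (the 2 Arf GEFs), and the ranges of the classes overlapped. Across the 64 genes the ratio showed little relation to the METTL3-RIP level (Spearman's correlation -0.06), and across 63 of them little to GC content (0.01) or GGACT density (0.04). For exon length the correlation was 0.22 and for input level, which is the divisor of the ratio, -0.24 (-0.33 over the 2252 listed genes). These are descriptions over listed genes that share the same 6 libraries, and the absence of ratios below 9.14 limits what such correlations can show.

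**Figure D2:**
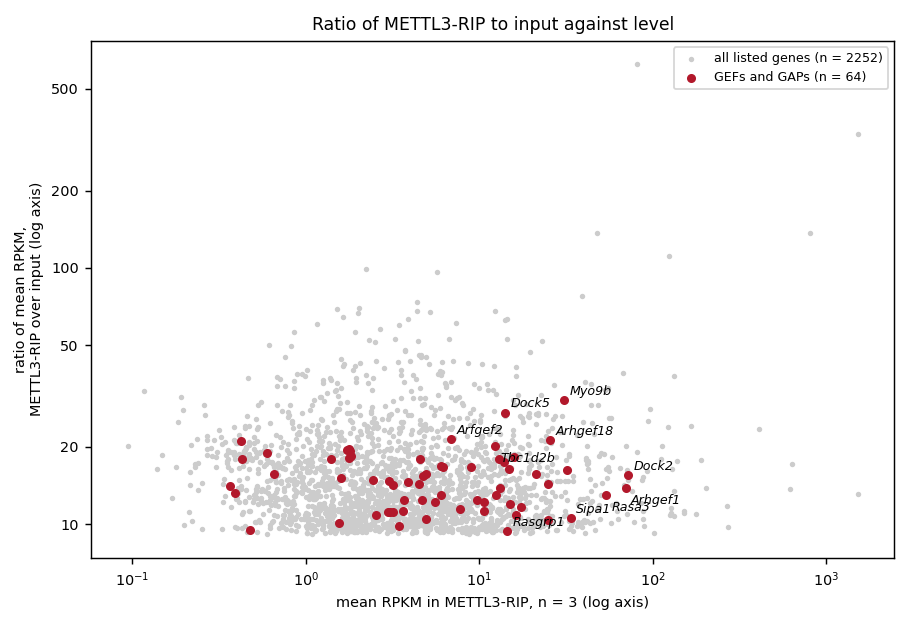
Ratio of mean RPKM in METTL3-RIP over input against mean METTL3-RIP RPKM, both on log axes, for listed genes (grey) and GEF and GAP genes (red) with at least 2 input libraries above 0. Myo9b (30.5) and Dock5 (27.2) were the highest of the family, and most of its genes lay between 10 and 20 at every level.

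Next, GEFs and GAPs were set against the middle of the table. The median level of all listed genes was subtracted from each library before the same limma fit on log2(RPKM + 0.1). Of the 67 genes 12 were higher than that median in METTL3-RIP against input (17.9%, where 11.2% of listed genes were called higher), 12 were lower (17.9%, where 19.9% were called lower) and 43 did not pass the threshold. These counts depended on the added constant, with 38 higher and 20 lower at 1 RPKM and 2 higher and 5 lower at 0.01 RPKM. Without METTL3-RIP replicate 1, 2 or 3 the higher genes fell to 4, 4 and 3. Shares of all listed genes at these other settings are not given here, so the counts show only how far calls moved. The median relative difference was -0.09 for the family and -0.21 for all listed genes. The 0 of this fit is thus the shift of the library medians and lies above the middle of the listed differences. The relative difference also rises with level, as given below, and the family was listed at higher levels than the table. Its shares of higher and lower calls were not compared at like level.

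Myo9b had the largest relative difference, 1.38 ± 0.15 on the log2 scale (SE, limma adjusted p = 0.0010). Dock5 followed with 1.10 ± 0.17 (adjusted p = 0.0040) and Arhgef18 with 0.86 ± 0.14 (adjusted p = 0.0040). Tbc1d2b had 0.70 ± 0.18 (adjusted p = 0.027) and Arfgef2 0.63 ± 0.14 (adjusted p = 0.017). The others called higher were Arap3, Dennd4a, Dock8, Rap1gap2, Dock2, Arap1 and Rapgef2, with relative differences from 0.40 to 0.61. The higher genes thus came from 9 of the 10 classes, all but the Ras GAPs and IQGAP scaffolds, and included 3 of the 6 DOCK and ELMO genes. The 12 genes had ratios of 15.5 to 30.5, all above the median of the table.

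Only Myo9b and Dock5 stayed past the threshold under every alternative computed for them, 13 and 12 in number. Arhgef18 was lost under 1 of 13 (adjusted p = 0.059 with 0.01 RPKM added). In the fit of recovered reads, which was chosen after seeing the data and holds 46 of the 67 genes, Myo9b had 1.17 (adjusted p = 0.0010) and Arhgef18 0.64 (adjusted p = 0.019), whereas Dock2 had 0.18 (adjusted p = 0.23). Rasgrp1, not past the threshold at -0.29 ± 0.12 (adjusted p = 0.10), was lower in that fit with -0.55 (adjusted p = 0.037).

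Of the 12 lower genes 10 had a mean under 0.5 RPKM over the 6 libraries: Arhgef40, Arhgef10, Rasa4, Tiam1, Arhgef4, Tbc1d8, Arhgap23, Tbc1d2, Iqgap3 and Arhgap33. The largest of these differences were -2.26 ± 0.18 for Arhgef40, -2.19 ± 0.28 for Arhgef10, -1.60 ± 0.29 for Rasa4 and -1.58 ± 0.23 for Tiam1 (adjusted p = 0.00035, 0.0022, 0.0074 and 0.0034). Without an added constant 7 of the 10 had a ratio, of 9.48 to 21.01, and in 5 of these it was above the median of the table. Recovered reads were at hand for 8 of the 10. On these Tbc1d8 (1.73), Arhgef10 (0.91), Arhgef40 (0.84), Iqgap3 (0.76), Arhgap23 (0.67), Tbc1d2 (0.50) and Arhgap33 (0.20) turned to values above 0 and Rasa4 stayed below (-0.28), none past the threshold. The relative difference had a Spearman's correlation of 0.83 with METTL3-RIP level over the 67 genes and 0.78 over the 2652 listed genes. Higher and lower calls alike moved with the constant added. With 0.01 RPKM in place of 0.1 RPKM, Dock2 went from 0.49 to 0.013, Dock8 from 0.53 to 0.089 and Arhgef4 from -1.51 to -0.92, and of the 12 higher genes only Myo9b and Dock5 stayed past the threshold. The remaining pair, Arhgap31 (-0.74 ± 0.20) and Asap2 (-0.47 ± 0.15), had mean METTL3-RIP levels of 1.54 and 3.45 RPKM and ratios of 10.1 and 9.82. Asap2 stayed lower with 0.01 RPKM added (-0.69, adjusted p = 0.044), the only 1 of the 12 lower genes to do so. Its main call was near the threshold (limma adjusted p = 0.049) and held under 3 of 12 alternatives. Asap2 is also uncertain because 11.7% of its exon length overlaps another gene on the same strand, and it had no recovered reads. With limma no member was called lower once genes under 0.5 RPKM were left out (4 of 57 at an unadjusted p under 0.05), and 1 of 46 was lower on recovered reads.

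**Figure D3:**
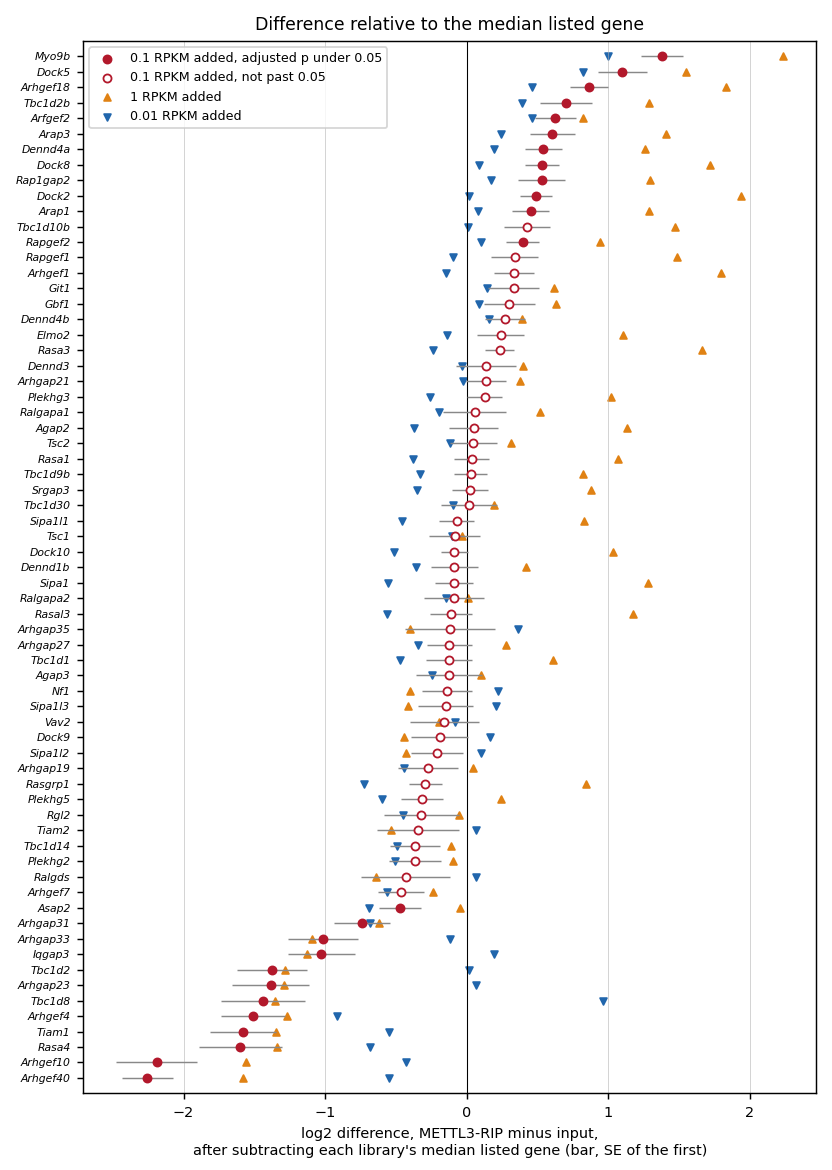
Log2 difference of METTL3-RIP minus input after each library's median listed gene was subtracted, for the 67 genes, with 0.1 RPKM added (circles with SE, filled where the adjusted p was under 0.05), 1 RPKM (orange) and 0.01 RPKM (blue). Myo9b and Dock5 lay to the right under all 3 constants, and the genes at the bottom moved toward 0 with the smallest constant.

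To see how much of the family the table held, its symbols were set against GENCODE M21. The symbol rule matched 186 protein-coding genes, of which 67 were listed (36.0%), against 1906 of 21924 protein-coding genes in all (8.69%). Genes were matched by their present symbol, so that Arhgap45, which the table lists under its older symbol Hmha1, is not counted. Of the classes, GAPs of Rap, Ral and Rheb had the largest share, with 9 of 11 (81.8%), Rap1gap and Ralgapb being the pair not listed. Every class lay above the share of all protein-coding genes. Whether a gene was listed depends on its level in NK cells as well as on its recovery, and genes outside the table were not analysed here, so the share says nothing of METTL3 binding by itself.

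GEF and GAP genes are long, and so are listed genes. Median exon length was 8181 nt for the 66 annotated members, 6850 nt for listed protein-coding genes and 3499 nt for all protein-coding genes. When all protein-coding genes were cut into 5 classes of equal size by exon length, 42.2% of the family and 12.04% of all genes were listed in length class 4 (4269 to 6514 nt), and 42.1% and 23.4% in length class 5 (6516 nt and longer). None of the family's genes in the 3 shorter classes was listed. GTPases that these proteins switch were looked for with a chosen list, which is not the whole Ras superfamily. Of its 64 annotated small GTPases 2 were in the table (3.13%), Rab3a and Rhebl1. None of the 17 and 8 small GTPases of this list in length classes 4 and 5 was in the table, against 19 of 45 and 48 of 114 of the family's genes. In length classes 2 and 3, where no gene of the family was listed, the table held 1 of 16 (6.25%) and 1 of 18 (5.56%) of the chosen small GTPases. The shares of all protein-coding genes there were 1.82% and 5.09%.

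**Figure D4:**
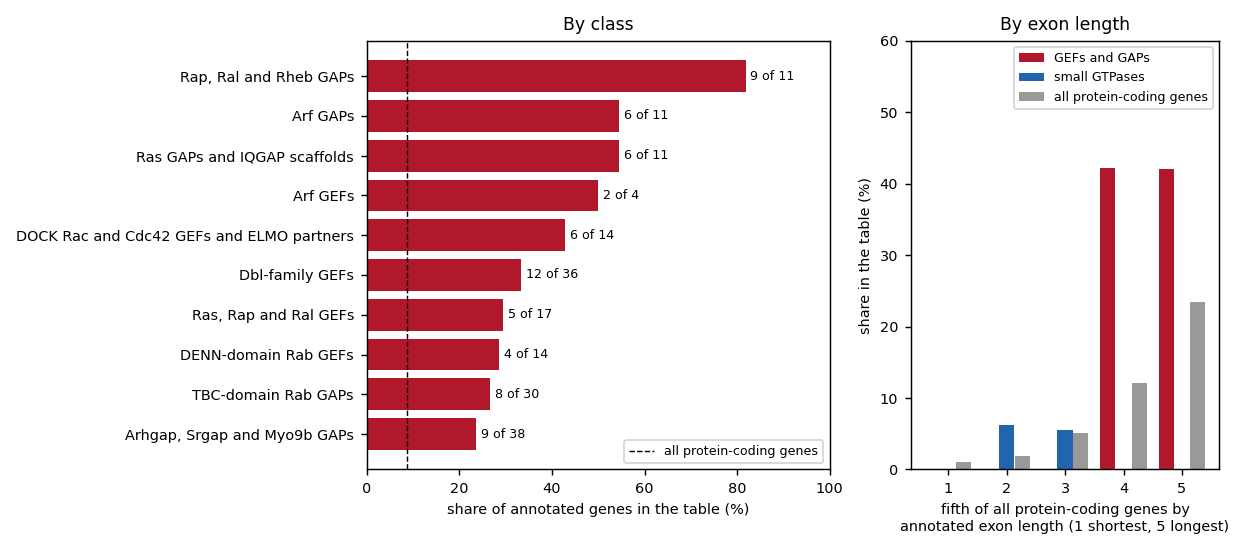
Share of annotated protein-coding genes that were in the table, left for each class of GEFs and GAPs (bars, number listed of number annotated; dashed line, all protein-coding genes, 8.69%) and right by length class for GEFs and GAPs, small GTPases and all protein-coding genes. The family exceeded all genes in length classes 4 and 5, and none of the 64 small GTPases looked for, a chosen list, was in the table there.

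Proteins of related function lie outside the symbol rule. Of 82 other GEFs and GAPs looked for, 25 were in the table, all higher in METTL3-RIP as the listing requires, and relative to the median listed gene 5 were higher, 6 were lower and 14 did not pass the threshold, where 11.2% and 19.9% of listed genes were called higher and lower. Their ratios ran from 9.33 to 63.4 with a median of 12.4 over 24 genes, below the 13.5 of the table and the 14.4 of the 64 family genes with a ratio. The 5 higher genes were Trio, Dab2ip, Psd, Hmha1 and Prex1. Trio, a GEF for Rac, had a mean of 11.1 RPKM and a ratio of 35.1, and Dab2ip, a Ras GAP, 10.01 RPKM and 34.1. Psd, an Arf GEF, had 3.88 RPKM and a ratio of 63.4. All 3 were above Myo9b in ratio. Hmha1, a GAP of blood cells, had 130 RPKM and Prex1, a Rac GEF, 72.6 RPKM, with ratios of 16.4 and 15.6. Of 57 inhibitors and effectors of the GTPases 14 were listed, 2 of them higher relative to the median listed gene and none lower (limma; 1 at an unadjusted p under 0.05, 1 of 12 on recovered reads). The 2 higher ones were Pik3cd, the leukocyte phosphoinositide 3-kinase subunit, with 42.3 RPKM and a ratio of 17.6, and Mtor, the kinase that Rheb acts on, with 4.53 RPKM and a ratio of 24.7.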

How the data were processed

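NK cells were lysed, and anti-METTL3 was added to most of the lysate while a smaller share served as input. Stranded paired-end libraries were mapped by the authors to GRCm38 with STAR 2.5.3a. The counter, its annotation and its use of strand are not given in the sources used here. The authors deposited 1 table with an RPKM value per gene and library. Its unit was inferred: with GENCODE M21 exon lengths 82.8% to 84.4% of the values above 0 were whole reads (tolerance 0.01 read), and 2154 of 2652 genes, 46 of 67 members, were whole in all libraries (tolerance 0.05). The log2 fold changes and p-values of the authors' own comparison, also deposited, were not used.

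Values were analysed as log2(RPKM + 0.1) with limma 3.58.1 (lmFit, eBayes with trend, two-sided, R 4.3.3), Benjamini-Hochberg adjusted over 2652 genes, threshold 0.05, with and without subtracting each library's median listed gene. The added constant compresses differences of low genes. A ratio is that of group means of RPKM, where at least 2 input libraries were above 0. Replicates are separate samples by title, and p-values measure only the spread between them, which may be technical. With 3 libraries against 3, a two-sided exact permutation test of a single gene cannot go below p = 0.1, so none was run. Only the relative fit was run on simulated data, log2 values with normal spread that model neither read counts nor the choice of listed genes.

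Named genes were the 2 of highest METTL3-RIP level in each class, the 4 with the largest and 4 with the smallest relative difference past the threshold, and a set of genes known in lymphocytes or for their class. Arhgap21, Arhgap23, Arhgap27, Arhgap31, Arhgap33, Arhgap45, Arap1, Asap2, Dock9, Elmo2, Iqgap3, Rapgef2, Arhgef4, Tbc1d2, Tbc1d8 and the named genes outside the rule were added after values were seen. Members and lists were chosen with earlier results of these data known. Arhgef4 had 2 annotation entries and no coordinates were used for it. Motifs, lengths and coordinates are from GENCODE M21. Alternatives were other added constants, filters, centrings, scalings, a replicate block, each library left out and limma's voom on recovered reads.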

Additional observations from a re-analysis of the deposited data

How the results depend on the processing

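That METTL3-RIP exceeded input kept its direction and its call for all 67 genes with 1 or 0.01 RPKM added, with the replicate block, with any 1 library left out and, for the genes present, in the filter at 0.5 RPKM (57) and on recovered reads (46). Scalings that set the libraries level removed it by construction, since every listed gene was chosen as higher. Calls for higher genes became 297 of 2652 and 12 of 67 after median centring and 150 of 2652 and 3 of 67 after quantile normalization. Counts relative to the median listed gene were less stable. Shares of all listed genes at the settings below are not given here, so the member counts show only how far calls moved. Higher and lower members numbered 38 and 20 with 1 RPKM added, 2 and 5 with 0.01 RPKM, 7 and 0 of 57 under the filter, and 2 and 1 of 46 on recovered reads. When any 1 library was left out, 3 to 10 members were higher and 8 to 12 lower. Centring on better expressed genes gave 9 and 14, and a trimmed mean 12 and 11. The median log2 ratio of 3.85 stayed between 3.75 and 3.92.

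Among named members median centring turned Arhgef40 (-2.26), Arhgef10 (-2.19), Rasa4 (-1.60), Tiam1 (-1.58), Rasgrp1 (-0.29), Vav2 (-0.16), Nf1 (-0.14), Rasal3 (-0.11), Sipa1 (-0.089), Dennd1b (-0.088), Dock10 (-0.086) and Tsc1 (-0.084). Quantile normalization turned Rasa4 (-0.73), Tiam1 (-0.72), Arhgef40 (-0.71), Arhgef10 (-0.66), Rasgrp1 (-0.59), Sipa1 (-0.43), Rasal3 (-0.38), Dock10 (-0.37), Srgap3 (-0.26), Rasa1 (-0.25), Agap2 (-0.25), Dennd1b (-0.21), Arhgef1 (-0.17), Rasa3 (-0.12), Vav2 (-0.11), Tsc1 (-0.088) and Tsc2 (-0.039). Relative differences turned with 1 RPKM added for Sipa1 (1.28), Rasal3 (1.17), Dock10 (1.03), Rasgrp1 (0.85) and Dennd1b (0.42), and on recovered reads for Arhgef10 (0.91) and Arhgef40 (0.84).

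Titles give both groups replicates 1 to 3, and input and precipitate were parts of a lysate, but deviations of same-numbered libraries correlated at -0.02, -0.02 and 0.01, so that the numbers were not taken as pairs. With the replicate block 2651 of 2652 genes and 67 of 67 members were higher, and relative to the median 9 members were higher and 11 lower. Depth limits the low genes most: of the 46 members with read numbers, Arhgef10, Arhgef40 and Tbc1d8 had 2, 3 and 0 input reads in all.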
